A study of Mus musculus with 10 samples.

Results

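The glucocorticoid receptor and a set of genes that respond to it were followed in CD31+ cells taken from the hearts of mice on a control or a ketogenic diet. The set held 10 genes named by symbol. Nr3c1 encodes the receptor, Hsd11b1 and Sult1a1 encode enzymes that act on hormones, Fkbp5, Tsc22d3, Zbtb16, Sgk1, Klf9 and Dusp1 are response genes, and Lcn2 encodes a secreted protein that rises in inflammation. All 10 were found among the 46983 genes of the count table, each under a single Ensembl identifier.

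Male wild-type C57BL/6J mice were 8 weeks old when they were assigned to a diet. They were offered either a control diet or a ketogenic diet very low in carbohydrate and high in fat for 14 days. Cardiac cells were released by enzymes and caught with CD31 antibodies on magnetic beads, and 5 mice per diet gave 1 polyA RNA library each. No label gives the hour at which hearts were taken. The comparison asks how the heart's CD31+ cells of mice with raised blood ketone bodies differ in expression from those of controls, here gene by gene for the receptor and its response genes.

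Glucocorticoids are steroid hormones of the adrenal cortex, corticosterone in the mouse, and their blood level follows the daily rhythm, feeding and stress. In a cell without hormone the receptor is held in the cytoplasm by heat shock protein chaperones. Bound to hormone it enters the nucleus, binds palindromic response elements in DNA as a dimer and raises some genes, and it restrains inflammatory genes largely through other factors. The enzyme 11β-hydroxysteroid dehydrogenase type 1, the product of Hsd11b1, regenerates active hormone inside cells. In endothelial cells glucocorticoids are known for lowering leukocyte adhesion molecules and for tightening the barrier.

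The palindromic response element was searched in the promoters of the set, since several of its genes are textbook targets of the receptor. RefSeq promoter windows of build GRCm38.p6, each the 250 bases before a transcript start, were read for 15 entries of 8 genes, and no window was used for Nr3c1 or Zbtb16. The motif searched was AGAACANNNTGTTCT, which reads the same on both strands, together with its 6-base arms AGAACA and TGTTCT, each the complement of the other, so that every match to the full motif also counts as arms. The full motif stood in 3 of 32851 windows of all genes (0.00913%), and 1 of those windows belonged to Sgk1. An arm stood in 16.1% of all windows and in 5 of the 15 windows of the set, which belonged to Sgk1, Sult1a1 and Tsc22d3. The windows of Sgk1, Fkbp5 and Tsc22d3 are shown 5′ to 3′ on the strand of the gene, because Sgk1 carries the full motif and the other two are standard readouts of the receptor. Capitals mark the matches. The Sgk1 window is chr10:21993640-21993889 on the plus strand, inside the span of the gene and outside its annotated exons. The Fkbp5 window is chr17:28486150-28486399 on the minus strand, also inside the span of the gene and outside its exons. The Tsc22d3 stretch is chrX:140600660-140600772 on the minus strand, the 113 bases of its window that lie upstream of the annotated gene.
Sgk1: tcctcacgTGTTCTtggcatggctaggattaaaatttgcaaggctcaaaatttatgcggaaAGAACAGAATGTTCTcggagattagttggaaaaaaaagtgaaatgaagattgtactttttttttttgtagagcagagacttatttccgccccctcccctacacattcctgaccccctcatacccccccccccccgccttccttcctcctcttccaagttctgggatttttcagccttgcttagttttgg
Fkbp5: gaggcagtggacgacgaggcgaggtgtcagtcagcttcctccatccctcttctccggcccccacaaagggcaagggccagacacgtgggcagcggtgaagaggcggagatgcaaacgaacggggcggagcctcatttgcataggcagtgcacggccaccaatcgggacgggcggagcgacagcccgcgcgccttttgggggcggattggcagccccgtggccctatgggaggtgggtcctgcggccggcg
Tsc22d3: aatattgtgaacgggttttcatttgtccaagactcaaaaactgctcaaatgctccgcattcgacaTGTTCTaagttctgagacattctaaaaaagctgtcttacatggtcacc
In Sgk1 the full motif, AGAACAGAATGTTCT, lay 189 to 175 bases before this transcript start, and a further arm lay nearer the 5′ end of the window. This start is 1 of 6 Sgk1 entries, and the other 5 held no full motif. The Tsc22d3 stretch comes from the Tsc22d3 entry with the most matches, and the other Tsc22d3 entries held no arm. The Fkbp5 window held no match. A match describes letters in a window and does not show that the receptor was bound. Only exact letters within 250 bases were searched, so a window without a match does not show that its gene lacks a response element.

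Between 10885154 and 12206734 reads were counted to genes in the control mice and between 11108020 and 12710861 in the ketogenic mice, so the deepest library held 1.17 times the reads of the shallowest. The test was run on the 15949 genes that passed a filter on low counts, and all 10 genes of the set passed it. Of 8 endothelial markers none was at 0 in any mouse, and their summed level overlapped between diets, at 45358 to 48368 normalized reads in the controls and 43887 to 49422 in the ketogenic mice. Markers of other heart and blood cells were also read, other than those of adipocytes, which were at 0 in some mouse and summed to at most 14.5. The 8 cardiomyocyte markers summed to 5783 to 7224 in the controls and 6740 to 9852 in the ketogenic mice, and all 8 had a positive fold change with 0 past the threshold, 6 at an unadjusted p under 0.05 and none at 0 in any mouse. The 4 B lymphocyte markers summed to 2861 to 4240 in the controls and 2273 to 2761 in the ketogenic mice, without overlap, and all 4 had a negative fold change with 1, Cd79a, past the threshold. The 6 macrophage markers summed to 1678 to 5830 in the controls and 1362 to 2625 in the ketogenic mice, and 5 had a negative log2 fold change, down to -2.63, with 0 past the threshold and 4 at an unadjusted p under 0.05. The part of these cells in the results that follow was not tested. In such bulk samples fewer cells of a type and less RNA per cell cannot be told apart.

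No gene of the set passed the test between the diets, and the receptor gene came closest. Expression is given as the normalized count, which is the raw read count scaled to a common depth with TMM factors. Differences are log2 fold changes of ketogenic over control from edgeR's quasi-likelihood test, with p-values adjusted by Benjamini-Hochberg over all 15949 genes and a threshold of 0.05. Of the 10 genes, 0 passed, against 1.34% of all tested genes. At an unadjusted p under 0.05 there were 3 of 10, against 17.8% of all tested genes. They were Nr3c1, with a positive fold change, and Tsc22d3 and Klf9, with negative ones. The median log2 fold change of the set was -0.068, with 2 genes above 0 and 8 below, and that of all tested genes was -0.0057, with 7745 above 0 and 8204 below. DESeq2 called 1 of the 10, Nr3c1, against 5.16% of the genes to which it gave an adjusted p, and limma on log2(RPKM + 1) called 0.

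**Figure D1:**
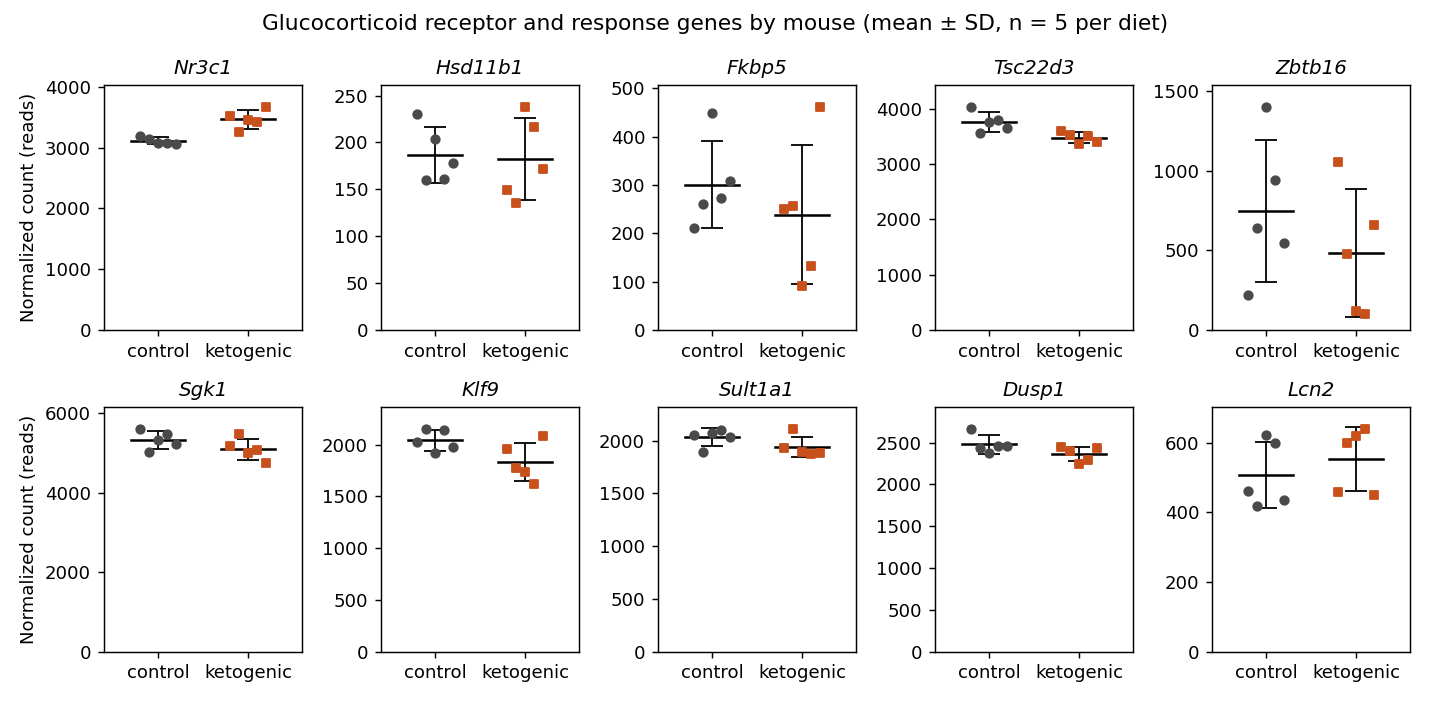
Normalized counts (reads, linear axis from 0) of the 10 genes in each mouse, with control mice as grey circles, ketogenic mice as orange squares, and the mean and SD of 5 mice as black bars. The diets are apart in Nr3c1, with 3053 to 3198 reads against 3248 to 3664, and overlap in the other 9 genes, with the widest scatter for their level in Fkbp5 and Zbtb16.

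The receptor gene Nr3c1 lies on the minus strand of chromosome 18 at 39410545 to 39519421 in build mm10 and overlaps no other annotated gene. Its normalized count was 3198, 3134, 3079.5, 3080.3 and 3053 in control mice 1 to 5 and 3522, 3248, 3451, 3423 and 3664 in ketogenic mice 1 to 5. Every ketogenic mouse lay above every control mouse, with the least distance between ketogenic mouse 2 and control mouse 1. Normalized counts of the diets failed to overlap, in either direction, in 4.34% of all tested genes. The mean was 3109 ± 57.9 (SD, n = 5) in the controls and 3462 ± 151 (SD, n = 5) in the ketogenic mice. The log2 fold change was 0.16 with a standard error of 0.034 and a 95% interval of 0.081 to 0.23, or 1.11-fold with limits of 1.06 and 1.17. The adjusted p of edgeR was 0.0504, just above the threshold. An exact two-sided permutation test of the difference in means gave p = 0.00794, the smallest that 5 against 5 mice allow. The call turned on the settings. Without ketogenic mouse 2 the adjusted p of edgeR was 0.0161, and in DESeq2 with all mice it was 0.00385, while over all 20 alternatives it ranged from 0.00385 to 0.11 at log2 fold changes of 0.14 to 0.18. The 8 cardiomyocyte markers, given above, had positive fold changes as well. The part of cardiomyocyte RNA in the Nr3c1 difference was not tested. The within-diet SD of Nr3c1 was 0.0486 on the log2 CPM scale (CPM is the count scaled to library size), against a median of 0.173 over all tested genes.

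Hsd11b1, the enzyme that regenerates active hormone, was sparsely expressed and did not separate the diets. It lies on the minus strand of chromosome 1 at 193221634 to 193264075, and the genes that overlap it, with Lamb3 the most abundant, held at most 63 reads in a mouse. Hsd11b1 had normalized counts of 230, 160.2, 204, 161 and 178 in the controls and 149, 135, 238, 217 and 172 in the ketogenic mice. The highest value, in ketogenic mouse 3, and the lowest, in ketogenic mouse 2, came from the same diet. The log2 fold change was -0.034 with a 95% interval of -0.40 to 0.33 and an adjusted p of 0.939 in edgeR, and its sign turned with the mouse left out.

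Fkbp5 encodes a chaperone partner that lowers the receptor's affinity for hormone and is itself raised by the receptor. It lies on the minus strand of chromosome 17 at 28399094 to 28517527. The normalized count was 212, 261, 448, 273 and 309 in control mice 1 to 5 and 249.6, 257, 90.3, 133 and 461 in ketogenic mice 1 to 5. Ketogenic mice 3 and 4 had the lowest counts of all 10 mice and ketogenic mouse 5 the highest, so the ketogenic mice spanned the whole range of the controls. The highest mouse held 5.10 times the normalized count of the lowest. The mean was 301 ± 89.6 (SD, n = 5) in the controls and 238 ± 144 (SD, n = 5) in the ketogenic mice. The log2 fold change was -0.33 with a standard error of 0.36 and a 95% interval of -1.12 to 0.45, and the adjusted p in edgeR was 0.665. On the linear scale the interval runs from 0.461-fold to 1.37-fold.

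Zbtb16 encodes a zinc finger repressor, also called PLZF, that responds strongly to glucocorticoids in many tissues. The gene is on the minus strand of chromosome 9 at 48654297 to 48836222 and overlaps no annotated gene. Zbtb16 had normalized counts of 219, 638, 1397, 938 and 547 in control mice 1 to 5 and 1057, 478, 117, 101 and 658 in ketogenic mice 1 to 5. The lowest counts were those of ketogenic mice 4 and 3 and control mouse 1, and the highest was that of control mouse 3. Between the extremes lay a factor of 13.8. The mean was 748 ± 444 (SD, n = 5) in the controls and 482 ± 400 (SD, n = 5) in the ketogenic mice, and the log2 fold change of -0.63 had a 95% interval of -1.93 to 0.67 and an adjusted p of 0.612 in edgeR. Single mice moved both genes. The log2 fold change of Zbtb16 was -1.14 without ketogenic mouse 1 and -0.28 without control mouse 3, and that of Fkbp5 was -0.72 without ketogenic mouse 5 and -0.12 without ketogenic mouse 3. Neither gene was called in any fit that left out a mouse.

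The spread of Fkbp5 and Zbtb16 among mice on the same diet was wide for the table. The within-diet SD was 1.28 on the log2 CPM scale for Zbtb16, at percentile 99.7 of all tested genes, and 0.698 for Fkbp5, at percentile 95. With the mean of each diet removed, Fkbp5 and Zbtb16 had a Pearson r of 0.824 and a Spearman rho of 0.806 over the 10 mice, with exact permutation p-values within diets of 0.0134 and 0.0203. All 10 pairs among Fkbp5, Tsc22d3, Zbtb16, Sgk1 and Klf9 were compared, and the adjusted values over the 10 pairs were 0.067 and 0.101, so the relation did not pass. Without ketogenic mice 3 and 4, the mice farthest from the median of Fkbp5, r was 0.543 with an exact permutation p of 0.182. Leaving out the extremes of Fkbp5 narrows its range and leaves 8 mice. The lower r therefore cannot show whether the relation rests on those 2 mice. Ketogenic mice 3 and 4 also had the highest sums of cardiomyocyte markers, 9852 and 9152 normalized reads, and the part of those cells was not tested. Klf9 gave a Pearson r of 0.609 with Zbtb16 (exact permutation p = 0.13) and 0.565 with Fkbp5 (exact permutation p = 0.208).

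**Figure D2:**
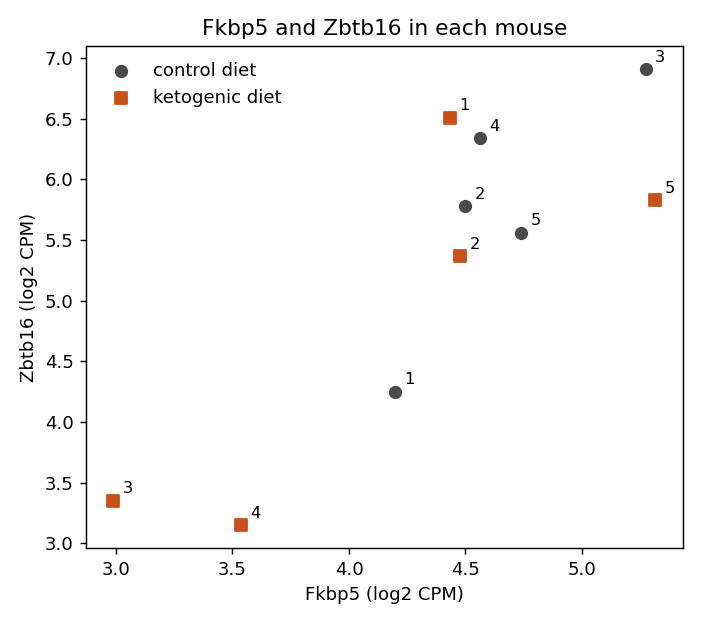
Level of Zbtb16 against that of Fkbp5 in each mouse, both as log2 CPM, with circles for control mice, squares for ketogenic mice and the mouse number beside each point. Ketogenic mice 3 and 4 lie apart at the lower left of both scales, and the correlation of 0.824 with diet means removed falls to 0.543 without them.

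Tsc22d3 encodes GILZ, a leucine zipper protein that carries part of the anti-inflammatory action of glucocorticoids. The gene is on the minus strand of chromosome X at 140539528 to 140600659, and its upstream bases are printed above. The normalized count was 4034, 3573, 3761, 3802 and 3654 in the controls and 3611, 3531, 3368, 3513 and 3401 in the ketogenic mice. Control mouse 1 was the highest, and only control mouse 2 lay within the range of the ketogenic mice. The log2 fold change was -0.11 with a standard error of 0.036 and a 95% interval of -0.19 to -0.032. The unadjusted p of edgeR was 0.00998 and the adjusted p 0.146, so the gene did not pass, and the adjusted p was between 0.129 and 0.299 in all alternatives.

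Sgk1, with the full motif in 1 of its 6 promoter windows, encodes a kinase that acts on ion transport and on FOXO factors. The gene is on the plus strand of chromosome 10 at 21882184 to 21999903. Sgk1 had normalized counts of 5606, 5019, 5325, 5471 and 5235 in the controls and 5175, 5476, 4999, 5077 and 4737 in the ketogenic mice. Control mouse 1 had the highest and ketogenic mouse 5 the lowest, with the other mice interleaved. Between the diets the log2 fold change was -0.066 with a 95% interval of -0.16 to 0.024 and an adjusted p of 0.429 in edgeR.

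Klf9, a zinc finger factor that the receptor and the thyroid hormone receptor both raise, lies on the plus strand of chromosome 19 at 23141226 to 23168134 and contains the microRNA gene Mir1192, with at most 18 reads. The normalized count was 2021, 2151, 1920.2, 2142 and 1974 in the controls and 1955, 1777, 1732, 1620 and 2079 in the ketogenic mice. Ketogenic mice 2, 3 and 4 lay below every control mouse, and ketogenic mice 1 and 5 lay among the controls. The log2 fold change was -0.16 with a standard error of 0.065 and a 95% interval of -0.30 to -0.015. The unadjusted p of edgeR was 0.033 and the adjusted p 0.231, and the exact permutation test gave p = 0.0635.

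Dusp1 encodes a phosphatase that switches off MAP kinases, and it is raised by glucocorticoids as well as by the stress of tissue dissociation. It lies on the minus strand of chromosome 17 at 26505590 to 26562128. Dusp1 had normalized counts of 2663, 2432, 2372, 2462 and 2465 in the controls and 2442, 2402, 2248, 2292 and 2435 in the ketogenic mice. Control mouse 1 stood highest and the remaining mice overlapped. Between the diets the log2 fold change was -0.069 with a 95% interval of -0.15 to 0.017 and an adjusted p of 0.391 in edgeR. Dusp1 overlaps Ergic1 on the opposite strand, with up to 2110 reads, and the strand of the reads was not recorded, so reads in the overlap cannot be assigned with certainty.

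Sult1a1 encodes a sulfotransferase for phenols and steroid-like compounds and is responsive to glucocorticoids in liver. It lies on the minus strand of chromosome 7 at 126672865 to 126676432, where it overlaps Sgf29 on the opposite strand, with up to 1369 reads. The normalized count was 2055, 1891, 2076, 2104 and 2039.7 in the controls and 1931, 2112, 1898, 1878 and 1886 in the ketogenic mice. Control mouse 2 sat low among the controls and ketogenic mouse 2 highest of all 10 mice. Between the diets the log2 fold change was -0.067 with a 95% interval of -0.16 to 0.027 and an adjusted p of 0.443 in edgeR.

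Lcn2 encodes lipocalin 2, which binds bacterial siderophores and is made by neutrophils and by inflamed cells of many kinds. It lies on the minus strand of chromosome 2 at 32384633 to 32388252 and overlaps no annotated gene. Lcn2 had normalized counts of 461, 418, 621, 598 and 436 in the controls and 459, 598, 620.5, 639.5 and 450.1 in the ketogenic mice. In both diets the mice lay on either side of a gap, at 418 to 461 or at 598 to 639.5 normalized reads, with 3 controls and 2 ketogenic mice in the lower range. Between the diets the log2 fold change was 0.13 with a 95% interval of -0.18 to 0.43 and an adjusted p of 0.673 in edgeR. The 8 neutrophil markers, 2 of them at 0 in some mouse, summed to 243 to 492 normalized reads in the controls and 144 to 449 in the ketogenic mice.

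**Figure D3:**
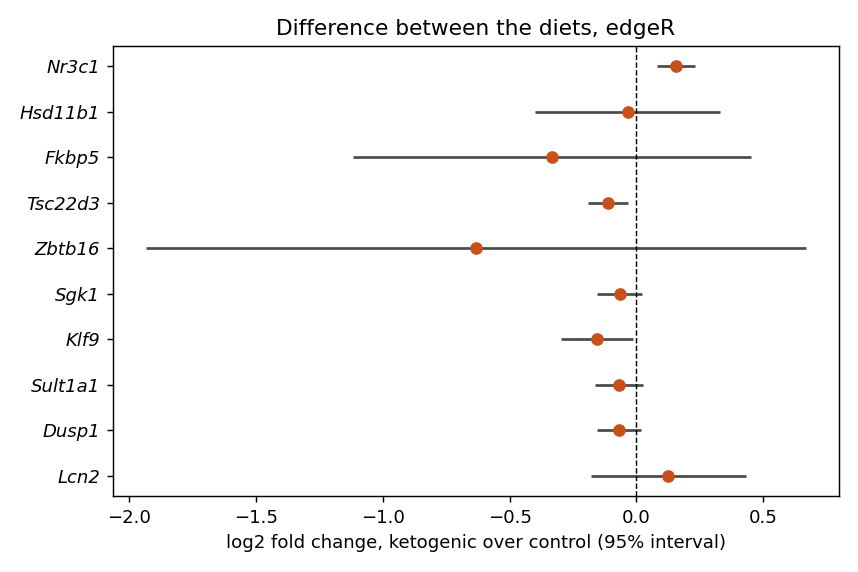
Log2 fold change of ketogenic over control for each of the 10 genes (points) with its 95% interval (lines) from edgeR. The interval of Nr3c1 lies above 0, those of Tsc22d3 and Klf9 lie below 0, and the intervals of Fkbp5 and Zbtb16 are the widest, at -1.12 to 0.45 and -1.93 to 0.67.

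For the order of levels between genes, RPKM (reads scaled to gene length and to library size) was used. Counts reached at most 35% of the possible start positions, described below, for Klf9, 31.8% for Sult1a1 and 2.15% for Fkbp5. How far coinciding starts lowered the abundant genes in RPKM was not tested. In the controls the mean RPKM was 53.4 ± 2.63 for Klf9 and 53.4 ± 1.98 for Sult1a1 (SD, n = 5 each), 42.2 ± 1.58 for Sgk1, 41.2 ± 1.72 for Dusp1 and 33.2 ± 1.42 for Tsc22d3. Nr3c1 followed at 15.9 ± 0.294, Zbtb16 at 12.5 ± 7.45, Lcn2 at 8.31 ± 1.54, Hsd11b1 at 2.41 ± 0.386 and Fkbp5 at 2.18 ± 0.655. Klf9 and Sult1a1, Sgk1 and Dusp1, Nr3c1 and Zbtb16, Zbtb16 and Lcn2, and Hsd11b1 and Fkbp5 were neighbours whose RPKM ranges overlapped in the control mice. In the ketogenic mice the mean RPKM was 51.4 for Sult1a1, 48.4 for Klf9, 40.7 for Sgk1, 39.6 for Dusp1, 31.0 for Tsc22d3, 17.8 for Nr3c1, 9.15 for Lcn2, 8.14 for Zbtb16, 2.38 for Hsd11b1 and 1.74 for Fkbp5. Sult1a1 and Klf9 and also Lcn2 and Zbtb16 had changed places in this order, and both pairs overlapped between mice.

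The raw counts of several of these genes hardly followed the depth of the library. Sgk1 held between 5092 and 5264 raw reads, a ratio of 1.03 over libraries whose depth spanned a ratio of 1.17, and Tsc22d3 held between 3377 and 3748. The variance of the raw count of Sgk1 was 0.353 times its mean in the controls and 0.755 times in the ketogenic mice, below what random sampling of reads gives, and no other gene of the set lay below 1 in both diets. Among all tested genes 6.37% did. No tested gene held more reads in a mouse than 108.6% of its possible start positions. Positions were counted as 2 per base of the length behind the RPKM of a gene. Sgk1 reached 24.4% and Sult1a1 31.8%. For a raw count that stays level, scaling to depth alone gives a negative fold change where the ketogenic libraries are deeper. The log2 ratio of mean depths was 0.0542. The TMM factors add to this scaling, at 0.988 to 1.002 in the controls and 1.001 to 1.007 in the ketogenic mice. With library size alone in edgeR the log2 fold change of Sgk1 was -0.054, against -0.066 with TMM factors. A count corrected for coinciding starts left the log2 fold changes of Sgk1 at -0.071, Sult1a1 at -0.072 and Dusp1 at -0.074. That correction takes starts as spread evenly over all positions. It therefore cannot restore counts held level by a smaller number of usable positions. Removal of coinciding reads is not given in the sources used here. If it took place, true differences in abundant genes are compressed, while small negative fold changes can come from scaling level counts to depth. Whether it took place was not tested.

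**Figure D4:**
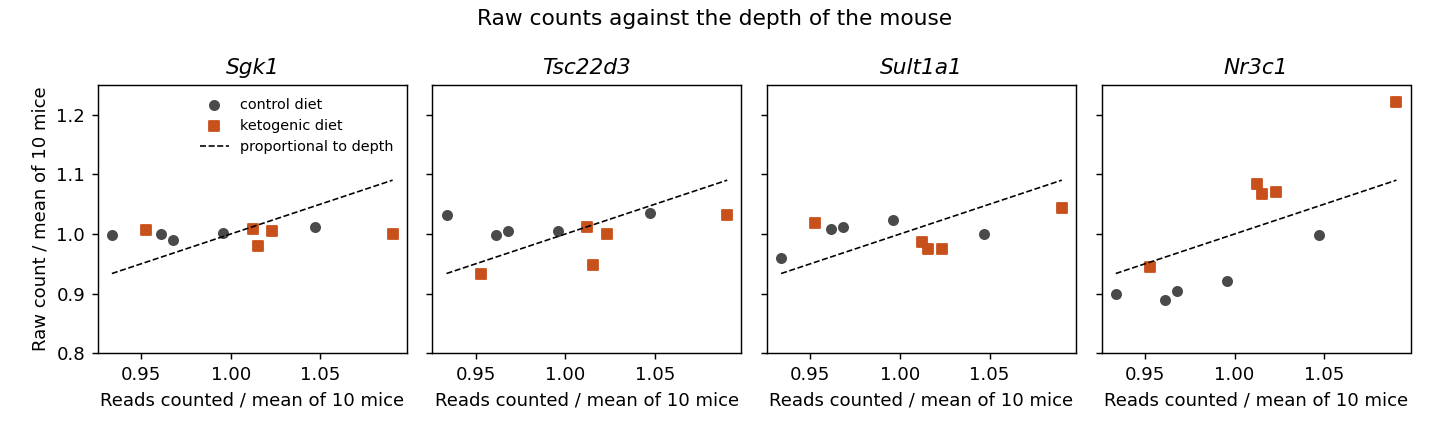
Raw count of Sgk1, Tsc22d3, Sult1a1 and Nr3c1 in each mouse, divided by the mean of the 10 mice, against the reads counted in that mouse, divided by the mean of the 10 mice, with the dashed line where a count proportional to depth would lie. Sgk1 stays between 5092 and 5264 reads over the whole range of depth, and Nr3c1, from 2926 to 4021 reads, lies below the line in all 5 control mice and above it in 4 of the 5 ketogenic mice.

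Tsc22d3 and Sgk1 had a Pearson r of 0.772 and a Spearman rho of 0.842 across the mice with diet means removed, with exact permutation p-values of 0.00965 and 0.00604 and adjusted values over the 10 pairs of 0.067 and 0.0604. Without control mouse 1 and ketogenic mouse 3 the r was 0.778 with an exact permutation p of 0.0365. On raw counts that were not scaled to depth, an alternative added after the data were seen, the r was 0.377 with an exact permutation p of 0.456. The raw counts of both genes hardly followed depth, and scaling divides both by the same depth in each mouse. The part of this shared scaling in the r of 0.772 was not tested. None of the 10 pairs passed after adjustment, and 2 had an unadjusted p under 0.05.

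The genes that hold the receptor and handle its hormone did not pass the test either. Of 16 listed genes 15 were tested, 0 were called by edgeR (1.34% of all tested genes) or DESeq2 (5.16%), and 1 had an unadjusted p under 0.05 in edgeR (17.8%). Their median log2 fold change was -0.052, with 7 above 0 and 8 below. Bag1, a co-chaperone that binds the receptor's hinge and restrains it, had a log2 fold change of 0.19 and an adjusted p of 0.218. The chaperone Hsp90ab1 had -0.090 (adjusted p = 0.281) and the steroid-exporting pump Abcb1a -0.080 (adjusted p = 0.287). Nr3c2, the mineralocorticoid receptor, which binds the same hormone, had normalized means of 387 ± 80.3 (SD, n = 5) and 389 ± 56.0 (SD, n = 5) and a log2 fold change of 0.0092 (adjusted p = 0.981). On the RPKM scale Nr3c2 averaged 2.34 in the ketogenic mice, against 17.8 for Nr3c1. Hsd11b2, the enzyme that inactivates corticosterone in mineralocorticoid target cells, held 0 to 8 raw reads in a mouse and was not tested.

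Among 32 further genes known to respond to glucocorticoids, 3 rose and 0 fell, where 1.34% of all tested genes passed in either direction. The list was chosen with earlier results of these data known, so its count is not an independent test against that share. The study itself reports Pdk4 as raised in these cells. At an unadjusted p under 0.05 there were 4 above 0 and 5 below, against 17.8% of all tested genes, and the median log2 fold change was -0.031, with 12 above 0 and 20 below. Pdk4, a kinase that closes the pyruvate dehydrogenase complex, held 483, 641, 692, 555 and 614 normalized reads in the controls and 1474, 1439.6, 1654, 1622 and 1902 in the ketogenic mice. The diets lay far apart, and the log2 fold change was 1.44 with a standard error of 0.10 and an adjusted p of 1.03e-04 in edgeR. Angptl4, a secreted inhibitor of lipoprotein lipase, held 992, 1881, 1976, 1651 and 2273 in the controls and 3710, 3870.4, 3624, 3647 and 3571 in the ketogenic mice, a log2 fold change of 1.07 with a standard error of 0.16 and an adjusted p of 0.00885. Control mouse 1 was the lowest for both genes. Glul, glutamine synthetase, had means of 2112 ± 82.8 and 2433 ± 111 (SD, n = 5 each) and a log2 fold change of 0.20 (adjusted p = 0.0375). Its diets did not overlap, but the adjusted p of Glul ranged from 0.000941 to 0.0828 over the alternatives and passed in 10 of 20, and the call was lost in 8 of the 10 fits that left out a mouse, all but those without ketogenic mouse 2 or 5. Pdk4 and Angptl4 passed in all 20. As background, Pdk4 and Angptl4 are also raised by fatty acids through PPAR receptors and by fasting, so they are not specific to the glucocorticoid receptor. DESeq2 also called Crispld2, which encodes a secreted protein, with an adjusted p of 0.0325, while edgeR gave 0.128. Crispld2 passed in 2 of the 20 alternatives, over which its adjusted p ranged from 0.0325 to 0.226.

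Inflammatory genes that the receptor restrains, 7 in all, had no call by edgeR (1.34% of all tested genes), DESeq2 (5.16%) or limma on log2(RPKM + 1), and 2 had an unadjusted p under 0.05 in edgeR (17.8%). All 7 log2 fold changes were below 0, as were 8204 of all 15949, and their median was -0.12, against -0.0057 for all tested genes. Vcam1, an adhesion molecule for leukocytes, had -0.12 (adjusted p = 0.156), the chemokine gene Cxcl1 -0.11 (adjusted p = 0.252) and the adhesion molecule Icam1 -0.076 (adjusted p = 0.353). Icam1 held 4951 to 5061 raw reads, at most 99.6% of its start positions. The variance of its raw count was 0.138 times its mean in the controls and 0.221 times in the ketogenic mice. A raw count that stays level gives a negative fold change by scaling to depth alone, as described above. The part of this in the 7 fold changes was not tested.

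Immediate early genes are raised while tissue is digested and share Dusp1 with the response to the receptor. Of 13 such genes 0 passed (1.34% of all tested genes) and 1 had an unadjusted p under 0.05 (17.8%), with a median log2 fold change of -0.076, 1 above 0 and 12 below. Jun had -0.11 (adjusted p = 0.111), Fosb -0.079 (adjusted p = 0.30) and Fos -0.078 (adjusted p = 0.341). Fos held between 4250 and 4369 raw reads, with a variance 0.186 times its mean in the controls and 0.0912 times in the ketogenic mice. Here too the part of scaling level counts to depth in the fold changes was not tested. DESeq2 and limma on log2(RPKM + 1) called 0 of the 13.

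**Figure D5:**
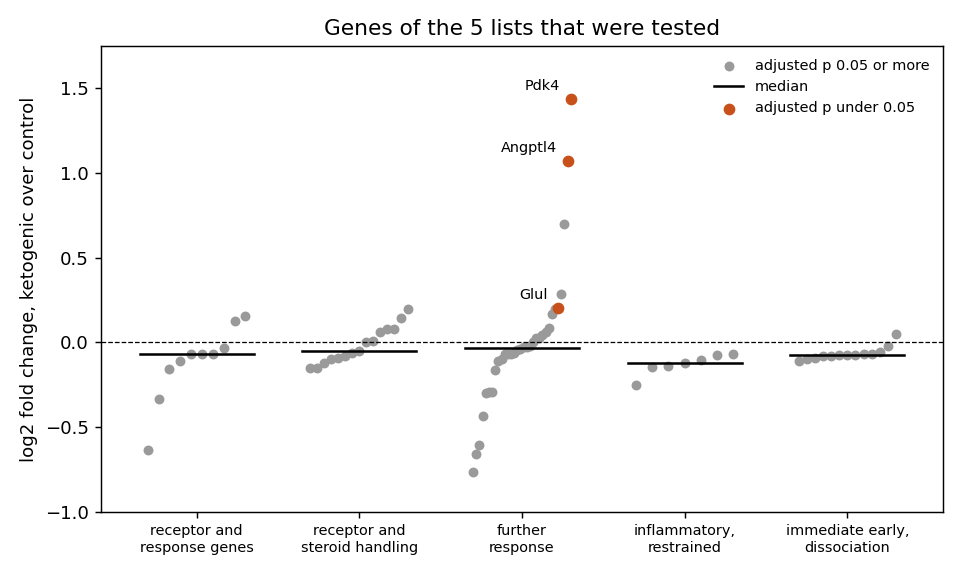
Log2 fold change of ketogenic over control for the tested genes of the set (10) and of the 4 lists described above (15, 32, 7 and 13 genes), sorted within each, with black bars at the medians and orange points at an adjusted p under 0.05 in edgeR. Pdk4, Angptl4 and Glul stand alone past the threshold, and the medians lie between -0.12 and -0.031.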

How the data were processed

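RNA of CD31+ heart cells from 5 mice per diet was sequenced by the authors as polyA, SMART-Seq amplified single reads. Per the labels they used bcl2fastq 2.17.1.14, STAR 2.3, HTSeq 0.6.0 and build mm10, with the roles, the annotation release and any duplicate removal not given in the sources used here. The authors deposited raw counts of reads per gene and an RPKM table of the same genes (reads scaled to gene length and counted reads). Columns were matched to mice by their names. Of 46983 Ensembl identifiers, 46488 were given a symbol without regard to version. Positions are from the GENCODE mouse annotation.

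The main test was edgeR 4.0.16 (R 4.3.3) with TMM factors, filterByExpr and the quasi-likelihood F-test with diet as the only term, at a threshold of 0.05 on Benjamini-Hochberg adjusted p-values over 15949 genes. DESeq2 1.42.0, the tool the study names, limma 3.58.1 on log2(RPKM + 1) and log2(RPKM + 0.1), other scalings and filters, a replicate block, a correction for coinciding start positions, -P ln(1 - n/P) for n reads and P start positions, and leaving out each mouse were alternatives. Permutation tests were exact and two-sided, and correlations used log2 CPM. The tests were also run on simulated data, with counts drawn so that their variance is not below their mean. Counts such as those of Sgk1 were therefore not covered. The genes and gene lists were chosen with earlier results of these data known. Of the lists, genes past the threshold, the 3 with the smallest unadjusted p, Nr3c2 and Hsd11b2 are named. Crispld2, Per1, Map3k6, Fam107a, Hif3a and Arrdc2 were chosen after their values were seen. Libraries from separate mice differed from each other within a diet by at least 4.38 times the chi-square that counting error gives per degree of freedom.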

Additional observations from a re-analysis of the deposited data

Results flagged for a closer look

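Of 70 groups of 5 values, over the genes named and the marker sums, 4 had 1 mouse whose distance to its nearest neighbour took more than 0.71 of the range of the group (Dixon's test at 95%), and chance alone gives about 1 in 20, or 3.5. For Sult1a1 the mouse was ketogenic mouse 2, at 2112 normalized reads, with a ratio of 0.772. For Fosb it was again ketogenic mouse 2, at 6859 normalized reads, with a ratio of 0.832. The sum of the 6 macrophage markers stood apart in control mouse 1, at 5830 normalized reads with a ratio of 0.788, and in ketogenic mouse 4, at 2625 with a ratio of 0.793. No cause was tested for any of these.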

How the results depend on the processing

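Of the 10 genes, 9 had no adjusted p under 0.05 in any of 20 alternatives, and Nr3c1 passed in 5 of them. The count of called genes was 1, Nr3c1, with DESeq2 size factors in edgeR (adjusted p = 0.0435), with library size alone (0.0366), with at least 10 counts in every mouse (0.0472) and with DESeq2 (0.00385). It was 0 with upper quartile factors, without a filter, with limma, and with the start position correction. When 1 mouse was left out the count was 0 to 1, and the call came without ketogenic mouse 2. Over all tested genes edgeR called 213, DESeq2 called 795, and 86 to 492 were called when 1 mouse was left out, the highest without ketogenic mouse 2. The list of 16 receptor and hormone handling genes gave 0 throughout, and the 32 further response genes gave 2 to 3 when 1 mouse was left out. The sign of Hsd11b1 turned without control mouse 1 (log2 fold change 0.052), without control mouse 3 (0.00029), without ketogenic mouse 1 (0.033) and without ketogenic mouse 2 (0.056), with a lowest value of -0.14 when ketogenic mouse 3 was left out, and the other 9 genes kept their sign in all 20. Upper quartile factors moved the median of all genes to -0.021, and no scaling moved it by more than this. The causes were not tested.

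The labels number the mice of both diets and tie no number to a litter or day. The study describes the animals of both diets as littermates, without saying which mice shared a litter. Deviations of same-numbered mice from their diet means correlated at 0.0044, 0.094, 0.0072, -0.13 and -0.0085, and 0 of 5 control and 1 of 5 ketogenic mice correlated best with their own number, so the numbers were not taken as pairs. With the replicate block the adjusted p of Nr3c1 was 0.11, 0 of the 10 genes passed, 2 of the 32 further response genes passed, and 113 genes were called in all.

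With 5 mice per diet the 95% intervals span 0.461-fold to 1.37-fold for Fkbp5 and 0.262-fold to 1.59-fold for Zbtb16, and changes of those sizes are not excluded. Counts that hardly follow depth limit what can be said of small fold changes in abundant genes. Intervals and tests cover the spread between mice of a single experiment.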

Other observations

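A few genes of the further response list were looked at after their values were seen, because ketogenic mice 3 or 4 were low in them as in Fkbp5 and Zbtb16. They are given as values, with no test of this pattern. Map3k6 held 746, 625, 315, 404 and 819 normalized reads in ketogenic mice 1 to 5 and 751 to 1103 in the controls, with a log2 fold change of -0.66 and an adjusted p of 0.165 in edgeR. Fam107a held 2895, 2114, 1386, 1548 and 3593 in the ketogenic mice and 2329 to 3532 in the controls, and Arrdc2 held 109.5, 109.8, 75.6, 79.7 and 111 and 97.6 to 153. In these 3 genes ketogenic mice 3 and 4 had the lowest counts of the 10 mice. Hif3a was sparse, with 25.7, 7.3, 2.9, 10.7 and 24.6 normalized reads in the ketogenic mice and 8.0 to 27.9 in the controls.

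Per1, a clock gene that glucocorticoids also raise, held 746, 797, 459, 574 and 649.7 normalized reads in the controls and 484, 302, 234, 472 and 624 in the ketogenic mice. Its log2 fold change was -0.61 with a 95% interval of -1.12 to -0.093 and an adjusted p of 0.205 in edgeR. Ketogenic mice 3 and 2 were the lowest for Per1, while ketogenic mouse 4 lay above the lowest control.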
